A study of Mus musculus with 2 samples.

Results

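The circadian clock of vessel and stromal cells of the mouse heart is described here through 10 genes, of 31053 genes in the count matrices: the activators Arntl, Clock and Npas2, the repressors Nr1d1 and Nr1d2, the output factors Dbp and Tef, and the period genes Per1, Per2 and Per3. The list of symbols was chosen with ratios from these same 2 libraries in view, so the ratios below are a description and carry no test. One library held cells from hearts of db/db mice, homozygous for a mutated leptin receptor gene (Lepr), that were given 1% salt, which the series title calls an HFpEF model (heart failure with a preserved ejection fraction). The other held cells from hearts of db/+ mice, heterozygous for that mutation, with no treatment label, so the effects of genotype and of salt cannot be told apart. Hearts of 4 male mice per genotype were used, and cardiomyocytes had been removed by filtering and leukocytes by CD45 beads before loading. The sources used here give neither the age of the mice nor the clock time at which hearts were taken, and a difference in that time cannot be told apart from the difference between the groups.

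The clock is a loop in which the proteins ARNTL (also called BMAL1) and CLOCK, or its relative NPAS2, bind DNA together at E-box motifs and activate Nr1d1, Nr1d2, Dbp, Tef and the Per genes. PER proteins, with CRY proteins, then repress ARNTL and CLOCK, while NR1D1 and NR1D2 (REV-ERB alpha and beta) bind RORE motifs and repress Arntl, Npas2 and Clock. DBP and TEF bind D-box motifs in output genes and in Per genes, and in mouse heart these transcripts are known to cycle over the day, with Arntl and Npas2 high at times when Dbp and Nr1d1 are low.

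Promoters of 9 of the 10 genes were found in RefSeq (build GRCm38.p6), as 14 windows of 300 bases that run from 250 bases before to 50 bases after an annotated start (all but Per2). Windows of Arntl, Nr1d1, Tef, Per1 and Per3 are shown because each holds a motif of the loop, and that of Dbp because its ratio was the lowest of the 10 genes in endothelial-like, fibroblast-like and mural-like cells taken whole. All are printed 5′ to 3′ on the strand of the gene, with motifs in capitals.
Arntl, second start, chr7:113207261-113207560, plus strand: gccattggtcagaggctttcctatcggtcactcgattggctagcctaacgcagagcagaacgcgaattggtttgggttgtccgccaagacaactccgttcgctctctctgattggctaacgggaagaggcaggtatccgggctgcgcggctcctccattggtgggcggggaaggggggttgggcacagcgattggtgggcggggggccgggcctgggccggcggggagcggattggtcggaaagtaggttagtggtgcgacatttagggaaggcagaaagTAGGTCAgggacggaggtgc
Nr1d1, chr11:98775328-98775627, minus strand: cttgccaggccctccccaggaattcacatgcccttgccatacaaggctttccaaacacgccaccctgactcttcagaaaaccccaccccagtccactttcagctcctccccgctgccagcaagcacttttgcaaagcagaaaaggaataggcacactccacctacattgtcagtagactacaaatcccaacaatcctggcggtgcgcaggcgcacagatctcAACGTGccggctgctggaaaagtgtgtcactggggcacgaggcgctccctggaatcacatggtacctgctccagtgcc
Dbp, chr7:45704997-45705296, plus strand: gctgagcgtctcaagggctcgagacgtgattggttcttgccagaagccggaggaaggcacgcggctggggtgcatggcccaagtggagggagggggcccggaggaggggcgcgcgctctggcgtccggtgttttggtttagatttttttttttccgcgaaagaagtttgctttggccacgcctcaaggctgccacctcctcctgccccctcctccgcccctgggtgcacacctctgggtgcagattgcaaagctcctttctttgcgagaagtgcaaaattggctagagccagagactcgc
Tef, second start, chr15:81811164-81811463, plus strand: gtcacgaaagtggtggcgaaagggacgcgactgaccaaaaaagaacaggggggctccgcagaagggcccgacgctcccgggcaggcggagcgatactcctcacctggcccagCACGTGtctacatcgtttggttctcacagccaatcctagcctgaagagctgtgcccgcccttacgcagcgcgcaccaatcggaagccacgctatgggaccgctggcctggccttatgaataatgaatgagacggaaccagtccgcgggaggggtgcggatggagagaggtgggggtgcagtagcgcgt
Per1, first start, chr11:69098699-69098998, plus strand: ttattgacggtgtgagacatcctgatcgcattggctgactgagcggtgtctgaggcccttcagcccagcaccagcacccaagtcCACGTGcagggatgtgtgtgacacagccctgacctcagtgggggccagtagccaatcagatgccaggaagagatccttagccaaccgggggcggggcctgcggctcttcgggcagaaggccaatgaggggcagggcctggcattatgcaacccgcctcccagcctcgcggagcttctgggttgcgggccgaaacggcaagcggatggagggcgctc
Per3, chr4:151044616-151044915, minus strand: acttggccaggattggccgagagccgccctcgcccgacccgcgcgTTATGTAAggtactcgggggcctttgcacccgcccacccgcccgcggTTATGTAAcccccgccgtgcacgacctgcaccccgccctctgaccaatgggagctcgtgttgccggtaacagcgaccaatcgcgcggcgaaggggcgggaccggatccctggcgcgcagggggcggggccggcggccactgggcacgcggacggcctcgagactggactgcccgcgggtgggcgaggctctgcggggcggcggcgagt
Positions of motifs count from the start of the gene, negative before it. In the Arntl window the capitals mark the RORE TAGGTCA, whose first base lies at position 31. The Nr1d1 window holds an E′-box at position -28, where the strand of the gene reads AACGTG. The Tef and Per1 windows hold the E-box CACGTG, at position -138 in Tef and -166 in Per1, and the other Tef start has it at position -127. The Per3 window holds the D-box TTATGTAA at positions -205 and -158. Both strands were searched for the E-box, for the E′-box (CACGTT), for the D-box in the forms TTATGTAA and TTACGTAA, and for the RORE in the forms TAGGTCA and TGGGTCA. The marked motifs do not overlap one another. Among 32851 RefSeq windows of the same length 7.15% held the E-box, 4.68% the E′-box, 6.45% the RORE and 1.06% the D-box, and 8 windows (0.0244%) held 2 or more D-boxes. The windows of Dbp, Npas2, Clock and Nr1d2 held none of the searched letters, which says nothing of the factors themselves. Of the genes with no window shown, Npas2 lies at chr1:39193731-39363236 on the plus strand, and Clock at chr5:76209868-76304792, Nr1d2 at chr14:18204054-18239127 and Per2 at chr1:91415982-91459324 on the minus strand (GENCODE, GRCm38). All 10 genes are annotated as protein-coding.

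Each group was 1 library, so there were no replicates, no test was possible, and every interval covers counting error only. The libraries held 4751 barcodes in db/db and salt and 5676 in db/+, and 7 barcode sequences occurred in both. After filtering, 4099 cells of db/db and salt and 4873 of db/+ remained, with medians of 7787 and 7047 UMIs (molecules counted once each) per cell in that order. Cells were put into classes by the UMIs of marker genes, none of them a clock gene, and the names are therefore written with "-like". Endothelial-like cells numbered 2474 in db/db and salt and 2860 in db/+, fibroblast-like cells 1090 and 1232, and mural-like cells (pericytes and smooth muscle cells together) 118 and 134. Near the limits of their class lay 99 endothelial-like cells of db/db and salt and 174 of db/+, and 20 and 33 fibroblast-like cells. The 8 endothelial markers summed to 8771 CPM in endothelial-like cells of db/db and salt and 7776 CPM in those of db/+, against 104 CPM and 149 CPM in fibroblast-like cells, and the 8 leukocyte markers to 3.99 CPM and 3.88 CPM in endothelial-like cells. CPM are UMIs of a gene per 1e+06 UMIs of the class. A gene counts as measured in a class where the mean of both libraries is at least 10 CPM, and as lower or higher where the log2 ratio, taken after adding 10 CPM to both levels, passes 1.5-fold (0.585).

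**Figure D1:**
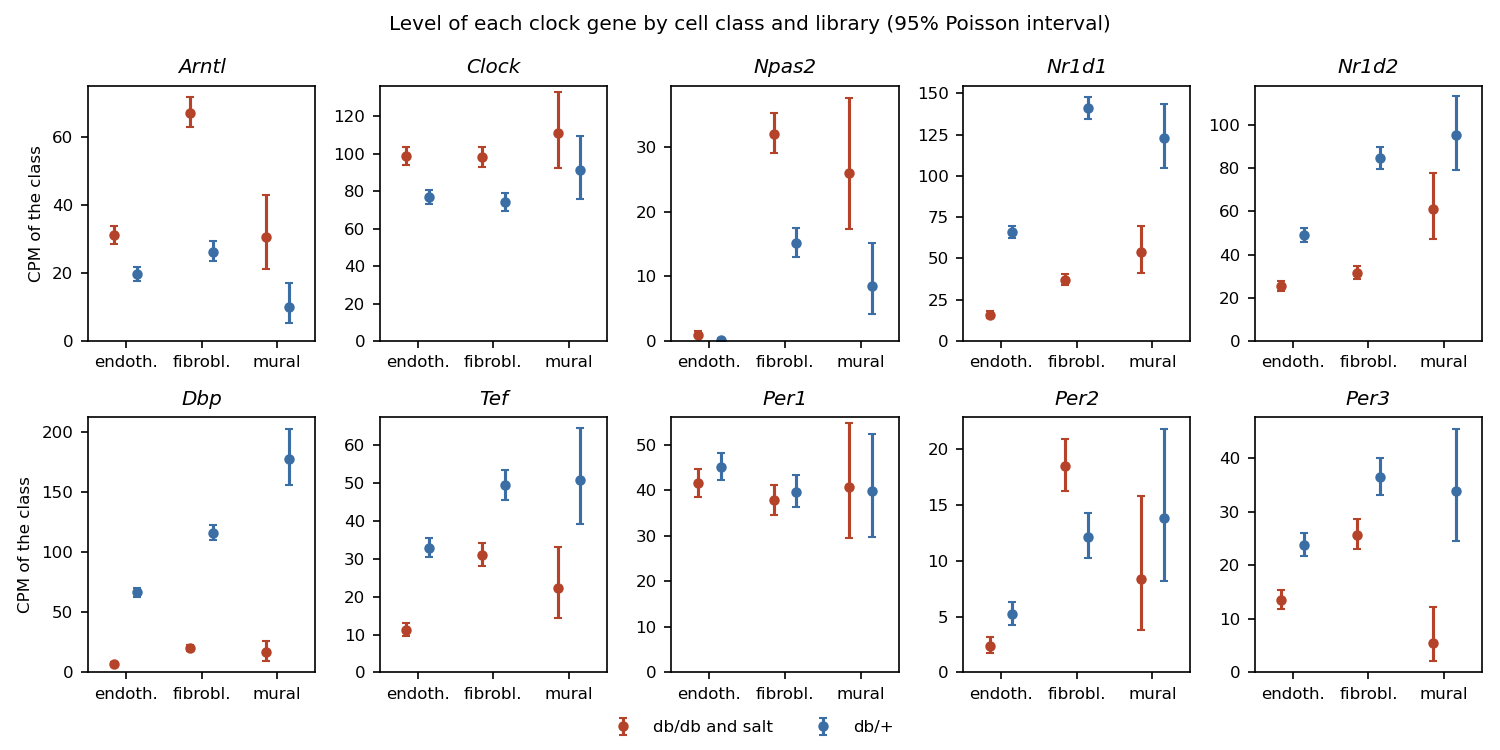
Level of each clock gene in CPM (vertical axis, from 0, with its own scale for each gene) in endothelial-like, fibroblast-like and mural-like cells, with db/db and salt in red, db/+ in blue, and 95% Poisson intervals as bars. Dbp, Nr1d1, Nr1d2, Tef and Per3 lie lower in db/db and salt in all 3 classes, while Arntl, Npas2 and Clock lie higher, with overlapping bars for Clock in mural-like cells.

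Of the activators, Arntl and Npas2 passed the limit on the higher side in fibroblast-like and mural-like cells, none passed it in endothelial-like cells, and Clock stayed within it in all 3 classes. Arntl, which encodes the partner that both CLOCK and NPAS2 need, had 910 UMIs, at 67.3 CPM (63.0 to 71.8), in fibroblast-like cells of db/db and salt and 323 UMIs, at 26.3 CPM (23.5 to 29.4), in those of db/+. The ratio was 2.55 (2.25 to 2.91), and the intervals of the libraries did not overlap. In endothelial-like cells Arntl was at 31.1 CPM (28.6 to 33.9) in db/db and salt and 19.6 CPM (17.7 to 21.7) in db/+. That ratio, 1.59 (1.39 to 1.81), gave a log2 value of 0.47 with the added 10 CPM and stayed within 1.5-fold. Mural-like cells had 33 UMIs (30.6 CPM) in db/db and salt and 13 UMIs (9.99 CPM) in db/+, a ratio of 3.06 (1.57 to 6.34).

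Npas2 differed between cell classes more than between libraries. It was at 32.0 CPM (29.1 to 35.2) in fibroblast-like cells of db/db and salt and 15.1 CPM (13.0 to 17.4) in those of db/+, a ratio of 2.12 (1.78 to 2.53). In endothelial-like cells it was nearly absent, with 16 UMIs (0.926 CPM) in db/db and salt and 3 UMIs (0.153 CPM) in db/+. Of the 16 UMIs in db/db and salt, 6 came from venous-like cells, at 5.88 CPM (2.16 to 12.8), and 4 from capillary-like cells, at 0.414 CPM (0.113 to 1.06), so these intervals did not overlap. In db/+ venous-like cells held 1 Npas2 UMI and capillary-like cells 0, where 3 UMIs would be 0.377 CPM, and arterial-like cells held 0 in both libraries. The level in fibroblast-like cells over that in endothelial-like cells was 34.5 (21.03 to 61.0) in db/db and salt and 98.4 (33.2 to 482) in db/+. Free RNA in droplets can give UMIs in cells that do not express a gene, and its part in the endothelial Npas2 counts was not tested. Mural-like cells had 28 Npas2 UMIs in db/db and salt and 11 in db/+, a ratio of 3.07 (1.48 to 6.84).

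Clock, which encodes the DNA-binding partner of ARNTL, was at similar levels in endothelial-like and fibroblast-like cells. It was at 98.6 CPM (94.0 to 103) in endothelial-like cells of db/db and salt and 76.9 CPM (73.0 to 80.9) in those of db/+, a ratio of 1.28 (1.20 to 1.38). In fibroblast-like cells the levels were 98.4 CPM in db/db and salt and 74.1 CPM in db/+, a ratio of 1.33 (1.22 to 1.45). Mural-like cells had 111 CPM (92.3 to 133) in db/db and salt and 91.5 CPM (75.8 to 109) in db/+, and the interval of their ratio spanned 1 (0.937 to 1.58). Among finer classes Clock was at 121 CPM (107 to 137) in arterial-like and 63.8 CPM (46.0 to 86.2) in cycling endothelial-like cells of db/db and salt, and in db/+ its level lay between 51.9 CPM in lymphatic endothelial-like and 99.2 CPM in smooth muscle-like cells. Its fibroblast level over its endothelial level was 0.998 (0.928 to 1.07) in db/db and salt and 0.964 (0.887 to 1.05) in db/+, so both intervals spanned 1.

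The REV-ERB genes, whose products repress Arntl, were lower in db/db and salt. Nr1d1 (REV-ERB alpha) was at 16.0 CPM (14.1 to 18.0) in endothelial-like cells of db/db and salt and 65.9 CPM (62.4 to 69.6) in those of db/+, 4.12-fold lower (3.62 to 4.71). In fibroblast-like cells it was at 37.2 CPM (34.0 to 40.6) in db/db and salt and 141 CPM (134 to 148) in db/+, 3.79-fold lower (3.43 to 4.19). With 58 UMIs in db/db and salt and 160 in db/+, mural-like cells differed less, 2.29-fold lower (1.68 to 3.14). Exons of Nr1d1 overlap those of Thra, the thyroid hormone receptor alpha gene, by 263 bases on the opposite strand, and whether the counting used the strand was not stated. Thra was at 149 CPM in endothelial-like cells of db/db and salt and 119.6 CPM in those of db/+, in the other direction.

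Nr1d2 (REV-ERB beta) was lower by less. Endothelial-like cells had 25.3 CPM (23.0 to 27.8) in db/db and salt and 49.0 CPM (45.9 to 52.2) in db/+, 1.94-fold lower (1.73 to 2.17). Fibroblast-like cells had 31.7 CPM (28.8 to 34.9) in db/db and salt and 84.6 CPM (79.5 to 89.9) in db/+, 2.67-fold lower (2.38 to 2.99). In mural-like cells its log2 ratio, -0.56, lay just within the limit.

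Dbp, an output factor known for a large daily amplitude, had the lowest log2 ratio of the 10 genes in each of these 3 classes. In endothelial-like cells it had 121 UMIs, at 7.01 CPM (5.81 to 8.37), in db/db and salt and 1302 UMIs, at 66.5 CPM (63.0 to 70.2), in db/+. That is 9.50-fold lower (7.88 to 11.5), and Dbp counted as measured there only through its db/+ level. Fibroblast-like cells had 20.2 CPM (17.9 to 22.8) in db/db and salt and 116 CPM (110.0 to 122) in db/+, 5.73-fold lower (5.03 to 6.54). Mural-like cells had 18 UMIs (16.7 CPM) in db/db and salt and 231 UMIs (178 CPM) in db/+, 10.6-fold lower (6.58 to 18.3). The libraries did not overlap in any of the 3 classes. Exons of Dbp share 539 bases with Sphk2 on the opposite strand, and Sphk2 was at 13.7 CPM in endothelial-like cells of db/db and salt and 12.9 CPM in those of db/+.

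The share of cells with a Dbp UMI had the same order. Of endothelial-like cells 3.72% in db/db and salt and 23.4% in db/+ had one, at median depths of 5265 and 5110 UMIs. Of fibroblast-like cells 16.8% in db/db and salt and 42.3% in db/+ had one, at 12000 and 9633 UMIs. Fibroblast-like cells were thus the deeper class, the more so in the db/db and salt library. With each cell thinned to 1500 UMIs, and shallower cells left out (92 and 169 endothelial-like, 11 and 20 fibroblast-like), the share was 0.882% in endothelial-like cells of db/db and salt and 8.77% in those of db/+. In fibroblast-like cells the thinned share was 2.22% in db/db and salt and 13.8% in db/+. For comparison, an Npas2 UMI occurred in 0.566% of endothelial-like cells of db/db and salt and 0.105% of those of db/+. No class lacked Dbp in db/+, so a background share of Dbp itself was not taken, and the part of free RNA in its shares was not tested.

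Tef, which encodes a relative of DBP that binds the same motif, was at 11.2 CPM (9.71 to 12.9) in endothelial-like cells of db/db and salt and 32.8 CPM (30.4 to 35.5) in those of db/+, 2.92-fold lower (2.49 to 3.45). Fibroblast-like cells had 31.0 CPM (28.1 to 34.2) in db/db and salt and 49.4 CPM (45.6 to 53.5) in db/+. That ratio, 1.59-fold lower (1.40 to 1.81), gave a log2 value of -0.53 with the added 10 CPM, just within the limit. Mural-like cells were 2.28-fold lower (1.41 to 3.80). Its fibroblast level over its endothelial level was 2.76 (2.33 to 3.29) in db/db and salt and 1.504 (1.34 to 1.68) in db/+, with no overlap of the intervals.

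The 3 period genes, which encode repressors of ARNTL and CLOCK, did not go together. Per1, which also responds to glucocorticoids and to immediate early signals, was at 41.6 CPM (38.6 to 44.8) in endothelial-like cells of db/db and salt and 45.3 CPM (42.3 to 48.3) in those of db/+. Its ratio was 0.920 (0.832 to 1.02) there, 0.953 (0.840 to 1.08) in fibroblast-like cells and 1.02 (0.668 to 1.56) in mural-like cells, and all 3 intervals spanned 1. Per3 was lower in db/db and salt, with 13.5 CPM (11.8 to 15.3) in endothelial-like cells against 23.8 CPM (21.6 to 26.02) in db/+, 1.76-fold lower (1.502 to 2.07). In fibroblast-like cells Per3 had 25.7 CPM in db/db and salt and 36.5 CPM in db/+, 1.42-fold lower (1.23 to 1.64). Both log2 ratios, -0.52 and -0.38, stayed within the limit. Mural-like cells had 6 Per3 UMIs in db/db and salt and 44 in db/+, 6.08-fold lower (2.58 to 17.4).

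Per2 lay on opposite sides in the 2 large classes. In fibroblast-like cells it was at 18.5 CPM (16.3 to 20.9) in db/db and salt and 12.2 CPM (10.3 to 14.3) in db/+, a ratio of 1.52 (1.24 to 1.88). In endothelial-like cells, where it was under the 10 CPM minimum, it had 41 UMIs (2.37 CPM) in db/db and salt and 102 UMIs (5.21 CPM) in db/+, a ratio of 0.456 (0.309 to 0.661). The fibroblast level over the endothelial level was 7.78 (5.58 to 11.1) in db/db and salt and 2.33 (1.80 to 3.03) in db/+. With 1 sample per class and library, the difference between the classes was not tested.

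Counted by class, 8 of the 10 genes were measured in endothelial-like cells (all but Npas2 and Per2), with 4 lower (Dbp, Nr1d1, Tef, Nr1d2) and 0 higher, where 1.38% of 8185 measured genes were lower and 0.489% higher. In fibroblast-like cells all 10 were measured, with 3 lower (Dbp, Nr1d1, Nr1d2) and 2 higher (Arntl, Npas2), where 0.968% of 8677 genes were lower and 0.611% higher. Mural-like cells had 4 lower (Dbp, Per3, Nr1d1, Tef) and 2 higher (Arntl, Npas2) of 10, where 3.43% of 8932 genes were lower and 3.15% higher. Among these, Per3 was under 10 CPM in db/db and salt (5.56 CPM), and Arntl (9.99 CPM) and Npas2 (8.45 CPM) were so in db/+. They counted as measured there only through the other library, as Dbp did in endothelial-like cells. Nothing is read from these counts, since such ratios were in view when the genes were chosen. The median log2 ratio of the measured members was -0.63 in endothelial-like, -0.22 in fibroblast-like and -0.47 in mural-like cells, where all measured genes had medians of 0.06, 0.02 and 0.00127. By log2 ratio Dbp stood at rank 10 from the lowest in endothelial-like, 2 in fibroblast-like and 2 in mural-like cells, and Nr1d1 at 22, 5 and 62. Arntl stood at rank 70, 7 and 19 from the highest in the same classes.

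**Figure D2:**
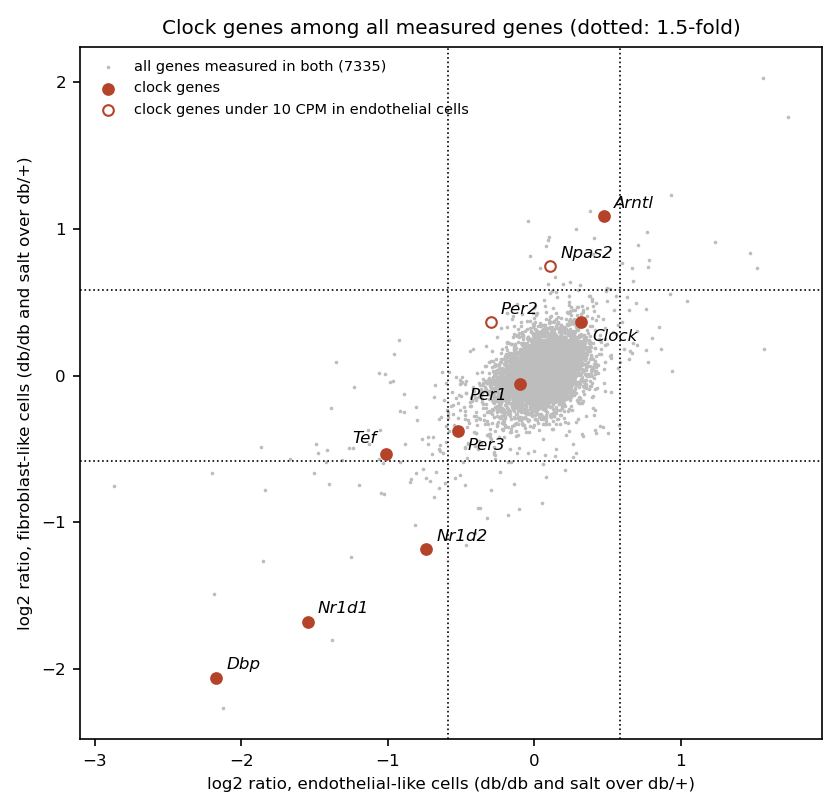
Log2 ratio of db/db and salt over db/+ in endothelial-like cells (horizontal axis) and in fibroblast-like cells (vertical axis) for 7335 genes measured in both classes (grey) and for the 10 clock genes (red, open where the endothelial mean is under 10 CPM), with dotted lines at the 1.5-fold limit. Dbp, Nr1d1 and Nr1d2 lie past the limit on the lower side in both classes, Arntl and Npas2 lie above it in fibroblast-like cells, and Per1 and Clock lie within it in both.

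In the finer classes of endothelial-like cells, 8 members were measured in each. Lower and higher members numbered 5 and 0 in capillary-like cells (all genes 1.14% lower and 0.494% higher), 4 and 2 in interferon-response capillary-like cells (1.82% and 1.69%) and 3 and 0 in arterial-like cells (1.66% and 1.42%). They numbered 5 and 1 in venous-like cells (2.77% and 3.08%), 3 and 1 in angiogenic-like cells (1.39% and 1.49%), 4 and 0 in cycling endothelial-like cells (4.95% and 3.49%) and 4 and 0 in endothelial-like cells of no subtype (2.72% and 4.23%). Lymphatic endothelial-like cells had 5 and 0 of 8 (12.1% and 9.17%), and endocardial-like cells 6 and 0 of 9 (8.04% and 9.56%). Among fibroblast-like cells, with 10 measured in each, they numbered 4 and 2 in resident ones (1.04% and 0.856%), 4 and 1 in matrix-activated ones (1.9% and 2.18%), 3 and 2 in adventitial ones (0.866% and 1.13%) and 4 and 2 in those of no subset (1.55% and 1.66%). Pericyte-like cells had 5 and 2 of 10 (9.85% and 10.9%) and smooth muscle-like cells 3 and 2 of 9 (5.6% and 5.08%). Some members in these counts were under 10 CPM in 1 library and counted as measured only through the other. The 5 classes with the fewest cells (lymphatic endothelial-like, endocardial-like, pericyte-like, smooth muscle-like and cycling endothelial-like) had the largest shares of all genes past the limit on the lower side. On the higher side endothelial-like cells of no subtype (4.23%) came before cycling endothelial-like cells (3.49%). A single gene past the limit says less in classes with large shares.

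Leaving aside the cells of no subtype or subset, 13 finer classes remain. Dbp and Nr1d1 were lower past 1.5-fold in 13 of 13, and every interval of their ratios lay below 1. In db/db and salt Dbp was under 10 CPM in capillary-like (4.97), interferon-response capillary-like (7.80), venous-like (1.96) and cycling endothelial-like cells (6.07). Nr1d1 was under 10 CPM in cycling endothelial-like cells of that library (4.56). There both genes counted as measured only through their db/+ level. The log2 ratio of Dbp lay between -3.47 in pericyte-like cells (5 UMIs in db/db and salt, 135 in db/+) and -1.28 in lymphatic endothelial-like cells (12 and 50 UMIs). That of Nr1d1 lay between -1.88 in cycling endothelial-like cells (3 and 83 UMIs) and -0.97 in smooth muscle-like cells (33 and 77 UMIs). The intervals of these ratios treat UMIs as independent. In lymphatic endothelial-like cells the 50 Dbp UMIs of db/+ came from 10 of 30 cells. The share of cells with a Dbp UMI was 21.4% (8.30 to 41.0) in db/db and salt and 33.3% (17.3 to 52.8) in db/+, with overlap. Intervals of the Nr1d1 shares also overlapped in lymphatic endothelial-like and endocardial-like cells. In the largest finer class, capillary-like cells, Dbp had 48 UMIs (4.97 CPM) in db/db and salt and 513 UMIs (64.5 CPM) in db/+, 13.0-fold lower (9.63 to 17.8).

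Nr1d2 and Tef had log2 ratios below 0 in all 13 finer classes and were past the limit in 9 and 11 of them. In cycling endothelial-like cells of db/db and salt they were at 6.07 CPM and 3.04 CPM, so they counted as measured there only through db/+. The same held for Tef in interferon-response capillary-like cells, at 7.20 CPM in db/db and salt and 34.8 CPM in db/+. Nr1d2 was lowest in cycling endothelial-like cells (-1.59) and nearest to 0 in lymphatic endothelial-like cells (-0.27). Tef was lowest in pericyte-like cells (-1.70) and nearest to 0 in adventitial fibroblast-like cells (-0.36). Per3 was also below 0 in 13 of 13, past the limit in 6, with 10 intervals below 1. Its extremes were pericyte-like cells at -1.90, on 2 UMIs in db/db and salt and 25 in db/+, and resident fibroblast-like cells at -0.26. In db/db and salt Per3 was under 10 CPM in pericyte-like (5.99), smooth muscle-like (5.38) and cycling endothelial-like cells (9.11). In these classes it counted as measured only through its db/+ level. Per1 had 10 log2 ratios below 0 and 3 above, and every one of its 13 intervals spanned 1.

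Arntl was above 0 in 11 of the 12 finer classes that measured it and past the limit in 8, with 9 intervals above 1. In pericyte-like cells Arntl was past the limit on 12 UMIs in db/db and salt and 7 in db/+, with an interval that spanned 1 (0.940 to 7.76). The highest log2 ratio of Arntl was in resident fibroblast-like cells, at 67.8 CPM in db/db and salt and 22.2 CPM in db/+, a ratio of 3.05 (2.47 to 3.79). The ratio was 2.14 (1.65 to 2.80) in adventitial fibroblast-like and 1.31 (1.08 to 1.59) in capillary-like cells. In lymphatic endothelial-like cells, with 6 UMIs in db/db and salt and 9 in db/+, the log2 ratio was -0.03. Npas2 was past the limit on the higher side in 4 of the 6 finer classes that measured it, with 3 intervals above 1, and below 0 in endocardial-like cells (-0.58). In pericyte-like cells, on 10 Npas2 UMIs in db/db and salt and 5 in db/+, the interval spanned 1 (0.941 to 11.3). In db/+ Npas2 was under 10 CPM in pericyte-like (9.91) and smooth muscle-like cells (7.53), and Arntl in smooth muscle-like cells (7.53). There they counted as measured only through their higher db/db and salt level. In endocardial-like cells Npas2 was at 6.07 CPM in db/db and salt and counted as measured only through db/+. Clock was above 0 in 13 of 13 but past the limit only in interferon-response capillary-like cells (0.74), with 4 intervals above 1 and 9 that spanned 1.

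**Figure D3:**
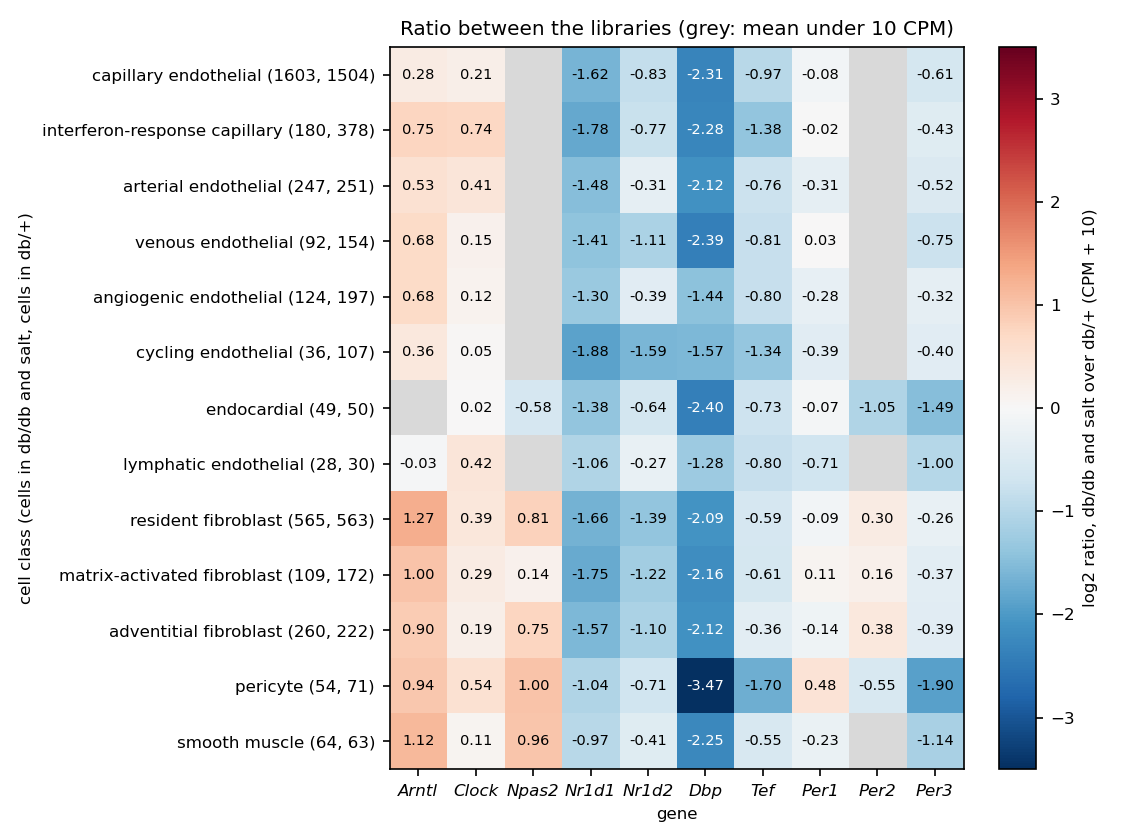
Log2 ratio of db/db and salt over db/+ for each clock gene (columns) in 13 finer cell classes (rows, with the number of cells in db/db and salt and in db/+), blue where lower, red where higher and grey where the mean is under 10 CPM. Dbp and Nr1d1 lie below 0 in every class, and Per1 stays within the 1.5-fold limit except in lymphatic endothelial-like cells.

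In the order of levels over the 13 finer classes, neighbours mostly did not differ beyond counting error. Dbp was highest in endocardial-like cells of db/db and salt, at 36.4 CPM (23.3 to 54.2) on 24 UMIs, and in pericyte-like cells of db/+, at 268 CPM. Endocardial-like cells also held fibroblast markers, at medians of 39 UMIs in db/db and salt and 24.5 in db/+. Their medians for endothelial markers were 66 and 37 UMIs. Dbp was lowest in venous-like cells of db/db and salt, at 1.96 CPM on 2 UMIs, and in cycling endothelial-like cells of db/+, at 37.8 CPM. Intervals of neighbours overlapped in 12 of 12 pairs in db/db and salt and in 10 of 12 in db/+. Arntl was lowest in endocardial-like cells of both libraries, where its mean was under the 10 CPM minimum. It was at 12.1 CPM (5.24 to 23.9) on 8 UMIs in db/db and salt and 6.98 CPM (1.44 to 20.4) on 3 UMIs in db/+. Its highest level was in resident fibroblast-like cells of db/db and salt (67.8 CPM) and in adventitial fibroblast-like cells of db/+ (30.8 CPM). For Arntl, intervals of neighbours overlapped in 12 of 12 pairs in both libraries.

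The balance of Dbp and Arntl within a set of cells is the same whatever the scaling between libraries. Dbp made up 18.4% (15.5 to 21.5) of Dbp plus Arntl UMIs in endothelial-like cells of db/db and salt and 77.2% (75.1 to 79.2) in those of db/+, with exact binomial (Clopper-Pearson) intervals. In fibroblast-like cells it made up 23.1% (20.8 to 25.7) in db/db and salt and 81.5% (79.6 to 83.3) in db/+. Arntl UMIs were thus the larger number in db/db and salt and Dbp UMIs in db/+. Venous-like cells had the lowest share of the 13 finer classes in both libraries, with 3.64% (0.443 to 12.5) in db/db and salt and 64.7% (56.2 to 72.7) in db/+. Endocardial-like cells had 75.0% (56.6 to 88.5) in db/db and salt and 97.1% (91.8 to 99.4) in db/+. In lymphatic endothelial-like cells, with 66.7% (41.0 to 86.7) in db/db and salt and 84.7% (73.0 to 92.8) in db/+, the intervals overlapped, which they did in no other finer class.

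**Figure D4:**
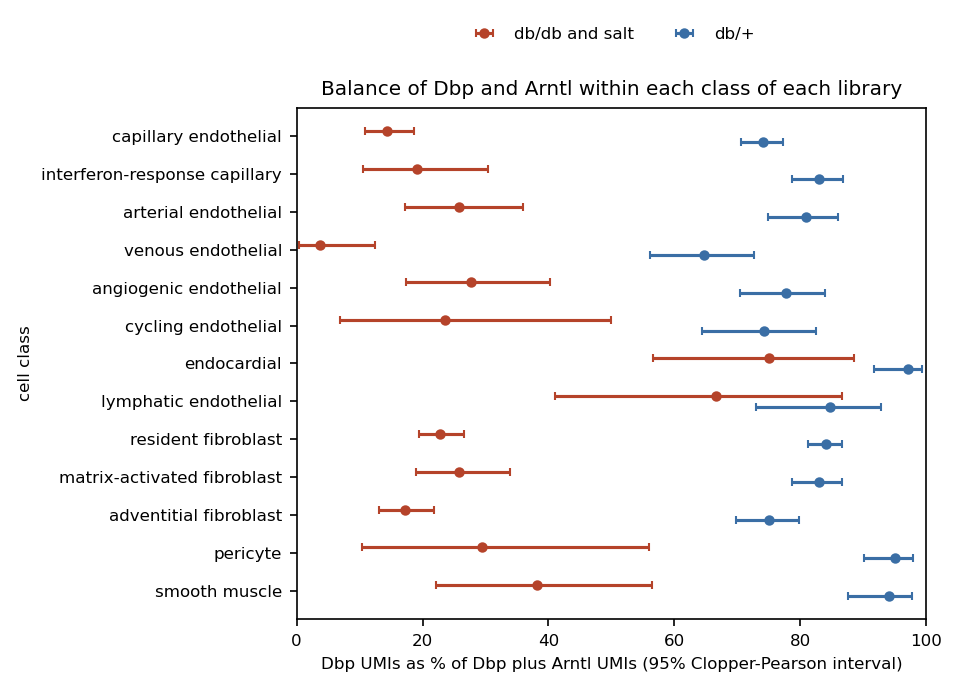
Dbp UMIs as a percentage of Dbp plus Arntl UMIs (horizontal axis) in 13 finer cell classes (rows), with db/db and salt in red, db/+ in blue, and 95% Clopper-Pearson intervals as bars. The share lies lower in db/db and salt in every class, and the bars of the libraries overlap in lymphatic endothelial-like cells.

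Ratios were also read in clusters made without the clock genes, of which 20 of 29 held at least 30 cells of each library. An endothelial cluster of 8 cells in db/db and salt and 735 in db/+, and another of 0 and 173, are not among the 20, so many endothelial-like cells of db/+ lay in clusters nearly absent from db/db and salt. Dbp, Nr1d1, Nr1d2 and Tef had log2 ratios below 0 in 20 of 20, with medians of -1.88, -1.22, -0.83 and -0.81. Arntl and Clock were above 0 in 19 of 20, with medians of 0.45 and 0.21. Npas2 was above 0 in 13 of 20, below 0 in 2 and at 0 in the rest, with a median of 0.17. Per3 was below 0 in 18 of 20 (median -0.44), Per1 in 18 (median -0.34) and Per2 in 14.

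The shares of all measured genes past the limit, given above for each class, stand beside the following counts too. Of 15 other genes of the loop and its regulators, 8 were measured in endothelial-like cells and 0 passed the limit, with a median log2 ratio of 0.08. Among the largest there were Timeless (-0.54), Rora, an activator at ROREs (0.34), and Bhlhe40, a repressor at E-boxes (-0.18). In fibroblast-like cells 10 were measured, with 2 lower and 1 higher (median 0.17). Bhlhe41, a close relative of Bhlhe40, was at 30.3 CPM in db/db and salt and 65.7 CPM in db/+, a ratio of 0.461 (0.408 to 0.520). Bhlhe40 was at 103 CPM in db/db and salt and 160.2 CPM in db/+, a ratio of 0.645 (0.602 to 0.691). Cry1, whose protein represses CLOCK and ARNTL, was at 28.7 CPM in db/db and salt and 11.01 CPM in db/+, a ratio of 2.60 (2.14 to 3.19). In endothelial-like cells the ratio of Cry1 was 1.09 (0.933 to 1.28). Nfil3, a repressor at D-boxes, had a log2 ratio of 0.51 in fibroblast-like cells, within the limit. In mural-like cells 9 were measured, with 4 lower and 0 higher (median -0.23).

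Clock-controlled output genes other than the members were also counted. Of 9, 8 were measured in endothelial-like cells with 1 lower, Tspan4, at 68.5 CPM in db/db and salt and 108 CPM in db/+. Nampt (-0.23), Klf10 (0.16) and Leo1 (0.12) came next. In fibroblast-like cells 9 were measured and 0 passed the limit, led by Leo1 (0.32), Tspan4 (-0.29), Klf9 (-0.29) and Wee1 (-0.24). Mural-like cells had 1 lower and 0 higher of 8. The medians were -0.09, -0.13 and -0.29 in the order endothelial-like, fibroblast-like, mural-like.

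Signals that act on Per1 were read from 2 further lists. Of 10 glucocorticoid-responsive genes, Per1 among them, 7 were measured in endothelial-like cells and 0 passed the limit (Fkbp5 -0.37, Sgk1 -0.15, Errfi1 -0.12, Klf9 -0.11). In fibroblast-like cells all 10 were measured, with 3 lower and 0 higher, where 0.968% of all measured genes were lower and 0.611% higher. These were Zbtb16, which encodes a transcription factor, at 21.2 CPM in db/db and salt and 52.0 CPM in db/+, and the metallothioneins Mt2 (42.1 CPM and 72.5 CPM) and Mt1 (189 CPM and 303 CPM), with Errfi1 next at -0.38. Mural-like cells had 1 lower of 9, and the medians were -0.11 in endothelial-like, -0.29 in fibroblast-like and -0.24 in mural-like cells. Of 11 immediate early and stress genes, all measured, 1 was higher and 0 lower in each of the 3 classes (Atf3 in mural-like cells, 0.59). In endothelial-like cells it was Nr4a1, which encodes a nuclear receptor, at 72.8 CPM in db/db and salt and 38.3 CPM in db/+, followed by Hspa1b (0.52), Egr1 (0.42) and Hspa1a (0.31). In fibroblast-like cells it was Nr4a1 again, at 116 CPM in db/db and salt and 65.5 CPM in db/+, followed by Atf3 (-0.31), Ier2 (-0.23) and Dusp1 (0.22). The medians of this list were 0.15, 0.13 and 0.09 in the same order of classes. The part of these signals in the ratios of the clock genes was not tested.

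Genes with a pattern like that of Dbp were sought over log2 ratios in the 8 classes with at least 100 cells in each library, among 6543 genes. The smallest Euclidean distances were those of Iigp1 (1.97), Bst2 (2.56), Isg15 (2.78), Gbp3 (2.92) and H2-K1 (3.13), and the member Nr1d1 had 2.21. Among the nearest to Arntl were Rpl35 (0.739), Scd2 (0.888), Lpl (0.951) and Dhrs3 (0.958). The genes nearest to Dbp were not alike in every class. In adventitial fibroblast-like cells, where Dbp had -2.12, the non-members listed for it lay between -1.06 (Isg15) and -0.34 (H2-K1). A distance concerns only the ratios between the libraries in those classes.

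Markers of other cell states and types differed between the libraries beside the clock genes. In endothelial-like cells the 8 interferon-response markers summed to 725 CPM in db/db and salt and 1277 CPM in db/+, and the 4 class II MHC markers to 13.5 CPM and 426 CPM, with none of either list at 0. Without cells that carried class II or several interferon markers, which left 1812 cells of db/db and salt and 1417 of db/+, the log2 ratio was -2.11 for Dbp, -1.41 for Nr1d1, -0.93 for Tef, 0.35 for Arntl and 0.10 for Clock. Clock thus lost most of its difference there, while Dbp and Nr1d1 stayed past the limit. In fibroblast-like cells the interferon markers summed to 134 CPM in db/db and salt and 299.8 CPM in db/+, and the 5 mesothelial markers to 36.1 CPM and 1.06 CPM, with 3 of the 5 at 0 in db/+, and their part was not tested.

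In mural-like cells the 8 smooth muscle markers summed to 10279 CPM in db/db and salt and 7530.4 CPM in db/+, the class II markers to 114 CPM and 803 CPM, and the endothelial markers to 2732 CPM and 2933 CPM. The 8 proliferation markers summed to 2.78 CPM, with 7 of 8 at 0, in db/db and salt and to 96.8 CPM in db/+. Smooth muscle-like cells of db/db and salt had medians of 162.5 UMIs of pericyte markers and 96 of smooth muscle markers. In db/+ these medians were 170 and 123. Near the limits of the mural class lay 32 of 64 smooth muscle-like cells in db/db and salt and 32 of 63 in db/+. Of all mural-like cells, 42 in db/db and salt and 55 in db/+ lay near these limits. With those left out (76 and 79 cells remained) the log2 ratio was -2.80 for Dbp, -1.62 for Per3, 1.12 for Arntl and 0.68 for Per1, against 0.02 for Per1 with them. Per1 was thus the member of this class that moved most, to past the limit, and Nr1d2, at -0.92 without those cells and -0.56 with them, also passed it.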

How the data were processed

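RNA of single cells was counted in 2 libraries, and group membership follows the genotype and treatment that GEO records. Values are unnormalized UMI counts, deposited by the authors and written by Cell Ranger 6.0.2 per the file headers. The submitters' processing notes name Cell Ranger, Seurat, GRCm38 and mm10, and the annotation release is not stated in these sources. Per the design text, hearts of 4 mice per genotype were used, and no source used here says whether their cells were mixed.

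Barcodes with at most 10% mitochondrial UMIs and at least 500 genes were kept, and Scrublet (scanpy 1.11.5) removed 45 doublets in db/db and salt (1.09%) and 75 in db/+ (1.52%). Cells were classed by UMIs of marker genes. A broad class needed at least 4 of 8 markers and a marker sum at least 4 times that of each other broad class. Endocardial-like and lymphatic endothelial-like cells needed at least 4 endothelial markers and 4 of their own, with no such rule on sums. Endocardial-like cells also needed an Npr3 UMI. Mural-like cells were smooth muscle-like where the smooth muscle marker sum exceeded the pericyte sum without Rgs5, and pericyte-like elsewhere. The other finer classes were set by at least 4 to 6 of their own markers. Barcodes with several cardiomyocyte, leukocyte or erythroid markers were set aside. These limits were set after the marker values were seen. The members, gene lists and named genes were chosen with earlier results of these data known: from each list, the 4 genes with the largest absolute log2 ratio among those measured in endothelial-like and in fibroblast-like cells, and the 5 genes nearest to Dbp and to Arntl; 2 of the genes so named are not reported here. UMIs were summed per class and library into CPM, with exact Poisson 95% intervals, and ratios have exact conditional binomial intervals. Log2 ratios add 10 CPM, which understates ratios of low genes. Clustering used Leiden (leidenalg 0.10.2) without clock genes. Positions came from GENCODE and promoters from RefSeq. The calculation was tested on simulated data. TMM factors came from edgeR 4.0.16.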

Additional observations from a re-analysis of the deposited data

Results flagged for a closer look

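Clock genes whose ratio between the libraries lay on opposite sides in 2 cell classes, with both counting intervals clear of 1, follow with their log2 ratios of db/db and salt over db/+. Per2 had -0.30 in endothelial-like and 0.36 in fibroblast-like cells. Cry2, whose protein represses CLOCK and ARNTL, had -0.17 in endothelial-like and 0.22 in fibroblast-like cells. Hlf, which encodes a relative of DBP and TEF, had -0.50 in endothelial-like cells (52 UMIs in db/db and salt and 164 in db/+, under the 10 CPM minimum), 0.25 in fibroblast-like cells and -1.57 in mural-like cells (16 and 83 UMIs). Rora had 0.34 in endothelial-like, 0.17 in fibroblast-like and -0.59 in mural-like cells. The differences between classes were not tested, since each class of each library is 1 sample.

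Of the barcodes outside the classes, some sets had a higher Arntl level in db/db and salt, with counting intervals of the ratio above 1. Kept cells in no class had a log2 ratio of 0.72, on 82 UMIs in db/db and salt and 44 in db/+. Barcodes with 10 to 20% mitochondrial UMIs had 0.73, on 69 UMIs in db/db and salt and 30 in db/+. In kept cells with markers of other types, on 35 UMIs in db/db and salt and 47 in db/+, the ratio was 1.24 (0.777 to 1.96), an interval that spans 1.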

How the results depend on the processing

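No paired analysis was possible because each group is 1 library and the labels give no replicate numbers. Each log2 ratio was recomputed under 12 other settings, 1 of them for endothelial-like cells alone. Cells of no subtype or subset were not recomputed as classes of their own. Of 82 ratios past 1.5-fold over the recomputed classes, broad and finer together, 6 changed sign, all with cells thinned to 1500 UMIs. Few UMIs remain after thinning. The ratios were Nr1d1 (1.71) and Tef (0.069) in lymphatic endothelial-like cells, Tef (0.31) in arterial-like and Arntl (-0.048) in angiogenic-like cells. The others were Npas2 (-0.98) in pericyte-like and Per3 (0.013) in smooth muscle-like cells. The log2 ratio of Dbp was -3.08 to -1.03 in endothelial-like cells, -2.46 to -1.24 in fibroblast-like cells and -3.36 to -1.77 in mural-like cells. Adding 1 CPM gave 1 member higher in endothelial-like cells in place of 0. Adding 50 CPM gave 2 lower in endothelial-like cells in place of 4, 1 higher in fibroblast-like cells in place of 2, and 0 higher in mural-like cells in place of 2. Thinning gave 7 lower and 1 higher in mural-like cells, in place of 4 and 2. The other settings (no minimum level, TMM scaling, totals without mitochondrial, haemoglobin and ribosomal protein genes, up to 20% mitochondrial UMIs, doublets kept, equal weight per cell, cells near limits left out, clusters in place of marker classes, and interferon and class II cells left out) moved no count of members by over 1.5 times. Clusters gave values for the broad classes and part of the finer ones. The cause of these changes was not tested beyond the smaller number of UMIs left by thinning, and low counts limit what single genes show in classes of under 100 cells.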

Other observations

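Summed over all barcodes of each library, before any filter or class, Dbp had 507 UMIs (12.4 CPM) in db/db and salt and 4036 UMIs (89.8 CPM) in db/+, a ratio of 0.138 (0.125 to 0.151). Nr1d1 had 25.97 CPM in db/db and salt and 90.6 CPM in db/+, a ratio of 0.287 (0.268 to 0.307). Arntl had 42.7 CPM in db/db and salt and 20.1 CPM in db/+, a ratio of 2.13 (1.96 to 2.31). These genes thus had the same order of libraries as in endothelial-like and fibroblast-like cells.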
